A study of Mus musculus with 18 samples.

Results

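Sohlh1, Sohlh2, Dmrt1, Lhx8 and Figla code for transcription factors of the mouse germ line, and their transcript levels were followed from embryonic stem (ES) cells through cultured germ cells to germ cells of the embryonic gonad and the juvenile testis. The genes were chosen by name: every probe whose gene name, or an older synonym of it, is one of these 5 genes was taken. This gave 5 of the 41174 probes on the arrays, 1 each for Sohlh2, Dmrt1 and Figla and 2 for Lhx8, so that 4 genes were among the 18883 tested. No probe of Sohlh1 was analysed here, so its level is not described.

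SOHLH1 and SOHLH2 are paired basic helix-loop-helix (bHLH) proteins made by germ cells. In male mice they are needed for spermatogonia to differentiate, and in female mice for the growth of the first oocytes. Lhx8, a LIM homeobox gene, and Figla, a bHLH gene needed for primordial follicles and for the zona pellucida genes, act in the same oocyte programme. DMRT1, a DM domain protein, acts both in spermatogonia, where it holds back entry into meiosis, and in Sertoli cells, the supporting cells of the seminiferous tubule.

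All cells were male by label and of a C57BL/6 129SV mixed strain. Stella-GFP ES cells, whose reporter is a bacterial artificial chromosome, were sorted after 7 days of differentiation (GFP+), and undifferentiated Stella-GFP ES cells were sorted into a GFP+ and a GFP- fraction. Dazl-GFP ES cells were sorted undifferentiated into GFP+ and GFP- fractions, and as GFP+ cells after 12 and 16 days of differentiation. Dazl-GFP+ germ cells were sorted from E13.5 embryonic gonads and from P7-P11 juvenile testes. ES cells had been kept on feeder fibroblasts, which were depleted before differentiation on gelatin. Each of the 9 groups had 2 arrays. The labels do not tell whether the 2 samples of a group are separate cultures or mice. Every p-value therefore reflects only how far these samples spread, which may be technical.

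Each array gave 43379 spots that were not controls, of which 50.6% to 68.9% carried the scanner software's flag for a signal well above background. A level is the log2 signal of a probe minus the log2 of its array's 75th percentile signal, so 0 is that percentile. The reporters' own genes followed the sorts. Dazl was at 0.79 and 0.73 in GFP+ Dazl ES cells against -3.29 and -3.42 in GFP- cells, and Dppa3, which codes for Stella, was at 5.15 and 5.34 in GFP+ Stella ES cells against 2.60 and 2.63 in GFP- cells. The library labelled E13.5 replicate 1 went against its sex label. None of the 3 Y-linked genes tested was above background on it, and all 3 were on E13.5 replicate 2 (Eif2s3y was at -7.29 and 3.17). Both E13.5 arrays and both testis arrays shared a slide that held no cultured cells, so slide and group cannot be told apart when they are set against cultured cells. The same holds for the day 7 arrays, which lay on 2 slides of their own under another extraction protocol. In sorted bulk samples, fewer cells of a type and less RNA per cell cannot be told apart.

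SOHLH proteins and FIGLA bind the E-box, which reads CANNTG on both strands. RefSeq promoter windows (GRCm38.p6) were matched for 4 of the 5 genes, and 3 of these end at the annotated start of their gene. The 250 bases before the start are printed for these 3, with E-boxes in capitals: Sohlh1 at chr2:25847249-25847498 (minus strand), Sohlh2 at chr3:55181794-55182043 (plus strand) and Lhx8 at chr3:154330561-154330810 (minus strand).
Sohlh1: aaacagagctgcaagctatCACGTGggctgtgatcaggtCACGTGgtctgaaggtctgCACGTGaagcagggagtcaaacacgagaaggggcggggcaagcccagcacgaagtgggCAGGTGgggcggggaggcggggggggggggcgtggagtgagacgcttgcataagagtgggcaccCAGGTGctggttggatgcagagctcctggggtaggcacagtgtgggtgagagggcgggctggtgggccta
Sohlh2: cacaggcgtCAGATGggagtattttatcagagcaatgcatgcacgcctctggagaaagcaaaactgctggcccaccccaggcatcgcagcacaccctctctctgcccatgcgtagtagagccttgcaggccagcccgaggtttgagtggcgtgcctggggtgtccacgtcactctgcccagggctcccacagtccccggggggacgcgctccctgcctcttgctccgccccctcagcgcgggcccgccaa
Lhx8: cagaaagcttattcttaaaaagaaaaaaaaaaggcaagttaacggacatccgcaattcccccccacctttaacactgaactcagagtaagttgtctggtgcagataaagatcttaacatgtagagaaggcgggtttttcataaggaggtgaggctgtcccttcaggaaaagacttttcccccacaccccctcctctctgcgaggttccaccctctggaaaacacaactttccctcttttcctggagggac
The Sohlh1 window held 5 E-boxes, a number reached by 1.15% of the 32851 RefSeq windows of this length, and 3 of them read CACGTG, which 0.0609% of windows hold as often. The Sohlh2 window held 1 and the Lhx8 window none, while 66.2% of all windows held at least 1. The Figla window, which does not end at the annotated start of its gene and is not printed, held 2. The DMRT1 core ACAATGT, searched on both strands, was in none of the 4 windows and in 2.56% of all windows. CG dinucleotides numbered 11 in the Sohlh1 window, 14 in the Sohlh2 window and 4 in the Lhx8 window, with a median of 6 over all windows. A match is a description of the letters only.

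Sohlh2 was above background on all 18 arrays and every array of differentiated or gonadal cells read higher than every ES array. In the Stella line it stood at 1.44 and 1.33 on the day 7 arrays, against -0.82 and -0.35 in GFP+ ES cells. In the Dazl line it stood at -1.40 and -1.0 in GFP+ ES cells, 3.80 and 3.68 at day 12, and 3.76 and 3.74 at day 16. The ES and differentiated arrays did not overlap in either line, while day 12 and day 16 did. The log2 change from ES cells was 1.97 ± 0.30 (SE) at day 7, a 3.92-fold difference (limma adjusted p = 0.00128). It was 4.94 ± 0.30 at day 12, or 30.7-fold, and 4.95 ± 0.30 at day 16, or 30.9-fold (both adjusted p = 1.45e-06). Between day 16 and day 12 the difference was 0.01, with a 95% confidence interval of -0.65 to 0.66.

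Sohlh2 at day 12 and day 16 overlapped the embryonic gonad, while day 7 lay below it. The library labelled E13.5 replicate 1 was at 4.04 and replicate 2 at 3.68, and the day 16 arrays lay between them. The E13.5 minus day 16 difference was 0.11 (95% confidence interval -0.54 to 0.77, adjusted p = 0.789), or -0.07 with E13.5 replicate 2 alone. Against GFP+ Dazl ES cells the E13.5 difference was 5.06 (33.4-fold, adjusted p = 2.94e-07), and 4.88 without that library. In testis germ cells Sohlh2 was at 2.30 and 3.24, below every E13.5, day 12 and day 16 array. It fell by 1.09 on the log2 scale relative to E13.5 (adjusted p = 0.0146) and by 0.98 relative to day 16 (adjusted p = 0.0176). Both calls rested on testis replicate 1: without it the changes were -0.62 (adjusted p = 0.116) and -0.51 (adjusted p = 0.157). The first was also lost without the library labelled E13.5 replicate 1 (-0.91, adjusted p = 0.0673), and the other without day 16 replicate 1 (adjusted p = 0.0743) or replicate 2 (adjusted p = 0.0675).

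Sorting ES cells by a reporter gave no call for Sohlh2. It averaged -1.20 ± 0.29 in GFP+ and -1.87 ± 0.32 in GFP- Dazl ES cells (SD, n = 2 each), a difference of 0.67 (adjusted p = 0.356). It averaged -0.58 ± 0.33 in GFP+ and -0.75 ± 0.03 in GFP- Stella ES cells, a difference of 0.16 on overlapping arrays. The ES lines themselves were not compared by test. On the 1 slide that held GFP+ Dazl ES, day 12 and day 16 arrays, the day 12 and day 16 differences from ES cells were 4.67 and 4.74, and with the slide as a fixed term 4.77 and 4.78. With normexp background correction they were smaller, at 3.65 and 3.12, the day 7 change was 1.47 and the E13.5 change from ES cells 3.93, all still called. With normexp Sohlh2 was also called between E13.5 and day 16 (0.81, adjusted p = 0.0172), against a median of -0.55 over all genes, and its testis against day 16 change was no longer called (-0.12). Normexp called 13819 of the 18883 genes between E13.5 and day 16.

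**Figure D1:**
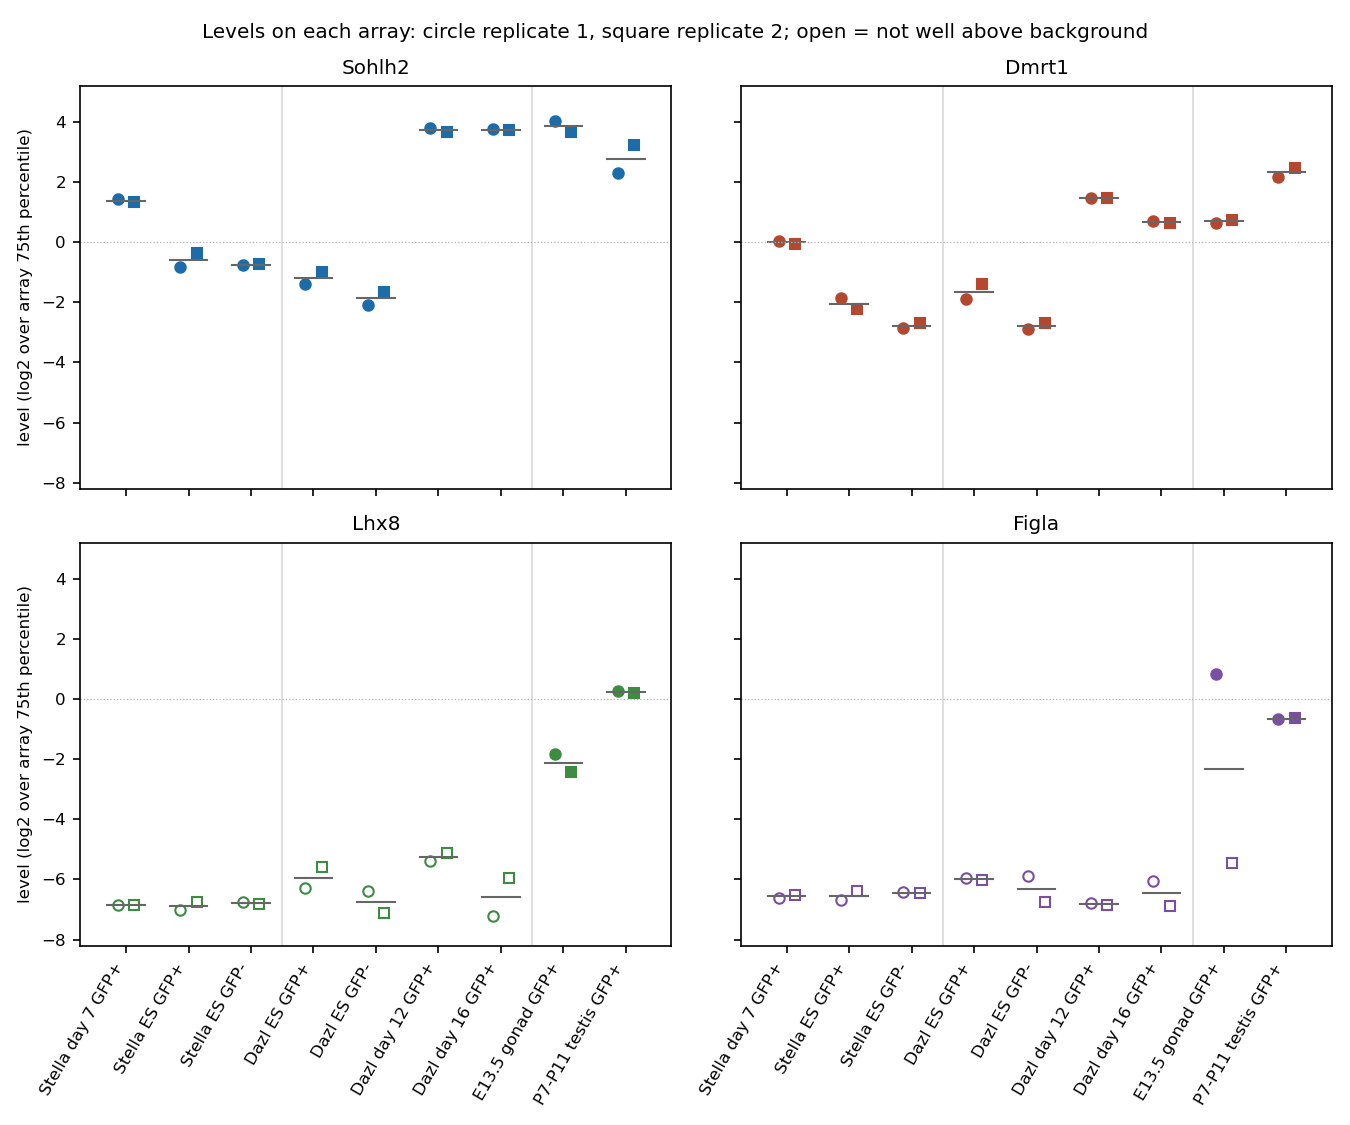
Level of Sohlh2, Dmrt1, Lhx8 and Figla on each of the 18 arrays, as log2 over the array's 75th percentile; circles are replicate 1, squares replicate 2, bars the mean, and open symbols arrays where the probe was not well above background. Sohlh2 and Dmrt1 are filled in every group, whereas Lhx8 and Figla are filled only at E13.5 (Figla on 1 of 2 arrays) and in the testis.

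Dmrt1 was also above background on all 18 arrays, and its highest level was in the testis rather than in the gonad or in culture. In the Stella line it stood at 0.05 and -0.05 at day 7, against -1.86 and -2.23 in GFP+ ES cells. In the Dazl line it stood at -1.90 and -1.39 in GFP+ ES cells, 1.47 and 1.47 at day 12, and 0.69 and 0.64 at day 16. No differentiated array overlapped the ES arrays of its line, and the day 12 arrays stood above the day 16 arrays. The change from ES cells was 2.05 ± 0.21 (SE) at day 7, or 4.13-fold (adjusted p = 1.42e-04). It was 3.11 ± 0.21 at day 12, or 8.65-fold (adjusted p = 2.38e-06), and 2.31 ± 0.21 at day 16, or 4.96-fold (adjusted p = 2.46e-05).

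Sohlh2 and Dmrt1 were thus 2 of 4 genes called at day 7, where 20.6% of the 18883 genes tested were called, 7.62% higher and 13% lower. They were again 2 of 4 at day 12 (27.3% of all genes, 13% higher and 14.2% lower) and at day 16 (24.7%, 11.1% higher and 13.6% lower). Lhx8 and Figla entered the test only through the gonad or testis arrays and were below background in all these cells. Markers of feeder fibroblasts ran the other way: of 10 such genes, 7 were lower at day 7, 8 at day 12 and 7 at day 16, and none was higher. Their part in the ES comparisons was not tested. Within the slide that held GFP+ Dazl ES, day 12 and day 16 arrays, Dmrt1 differed from ES cells by 2.85 at day 12 and 2.03 at day 16, and with the slide as a fixed term by 3.08 and 2.28. With normexp the day 7, day 12 and day 16 changes were 0.88, 1.84 and 0.92, still called.

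Between day 16 and day 12, Dmrt1 differed by -0.80 (95% confidence interval -1.25 to -0.35), or -0.78 and -0.83 within the 2 slides that held both. This missed the threshold over all genes (adjusted p = 0.138, unadjusted p = 0.0024), where 0 of 4 genes tested and 1.01% of all genes were called (0.614% higher and 0.392% lower). Lhx8 and Figla, among the 4, were below background at both days. With normexp the Dmrt1 difference passed (-0.92, adjusted p = 0.0429), in a fit that called 7052 of the 18883 genes, 5409 of them higher. At E13.5 Dmrt1 was at 0.65 and 0.73, overlapping the day 16 arrays. The E13.5 minus day 16 difference was 0.02 (95% confidence interval -0.43 to 0.48, adjusted p = 0.935), and the difference from GFP+ Dazl ES cells was 2.34, or 5.05-fold (adjusted p = 5.98e-06). Without the library labelled E13.5 replicate 1 these were 0.06 and 2.37, and with normexp the second was 1.27, still called.

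In testis germ cells Dmrt1 stood at 2.19 and 2.48, above every array of the other 8 groups. It was 3.12-fold higher than at E13.5 (log2 change 1.64 ± 0.21 SE, adjusted p = 1.27e-04) and 3.17-fold higher than at day 16 (1.66, adjusted p = 6.08e-05). Without the library labelled E13.5 replicate 1 the first was 1.60 (adjusted p = 5.45e-04). Of 15 Sertoli cell genes, 9 were higher and 1 lower than at E13.5 (median change 2.24), beside 16% and 18.9% of all genes. Relative to day 16, 7 were higher and 2 lower, beside 26.2% and 23% of all genes. Without the library labelled E13.5 replicate 1, 4 were higher and 2 lower than at E13.5. All 15 were above background on both testis arrays, 11 and 14 on the E13.5 arrays, and the sum of their linear levels was 90.6 and 20.5 in the testis against 419 and 218 at E13.5. That order rested on Rhox5, an X-linked homeobox gene: without it, an alternative chosen after seeing the data, the sums were 83.9 and 18.8 in the testis against 1.63 and 14.7 at E13.5. Their part in the Dmrt1 change was not tested.

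Dmrt1 was also called in the Dazl sort of undifferentiated cells. GFP+ Dazl ES cells, at -1.90 and -1.39, lay above GFP- cells, at -2.88 and -2.69, a 2.21-fold difference (log2 change 1.14 ± 0.21 SE, adjusted p = 0.0169). This was 1 call among 4 genes tested, where 2.88% of all genes were called, 1.47% higher and 1.4% lower. Lhx8 and Figla, among the 4, were below background in all ES cells. GFP+ Stella ES cells, at -1.86 and -2.23, also lay above GFP- cells, at -2.87 and -2.69, by 0.73 (adjusted p = 0.259, unadjusted p = 0.0044), and 0 of 4 genes were called there (0.455% of all genes, 0.0953% higher and 0.36% lower). The Dazl minus Stella difference between the sorts was 0.41 (95% confidence interval -0.23 to 1.05), with 0 of 4 genes called and 0.0371% of all genes (0.0318% higher and 0.0053% lower). The call in the Dazl line was lost without GFP+ replicate 2 (adjusted p = 0.158), without GFP- replicate 1 (adjusted p = 0.163) or replicate 2 (adjusted p = 0.0968), with the slide as a fixed term (adjusted p = 0.0638) and with normexp (0.58, adjusted p = 0.567). Within the 2 slides the difference was 0.98 and 1.30. Feeder fibroblast genes rose in the same sort, 5 of 10 with none lower (median change 2.22), their summed linear level being 133 and 129 in GFP+ against 27.7 and 27.4 in GFP- cells. All 10 were above background on both GFP+ arrays, and their part in the Dmrt1 call was not tested.

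**Figure D2:**
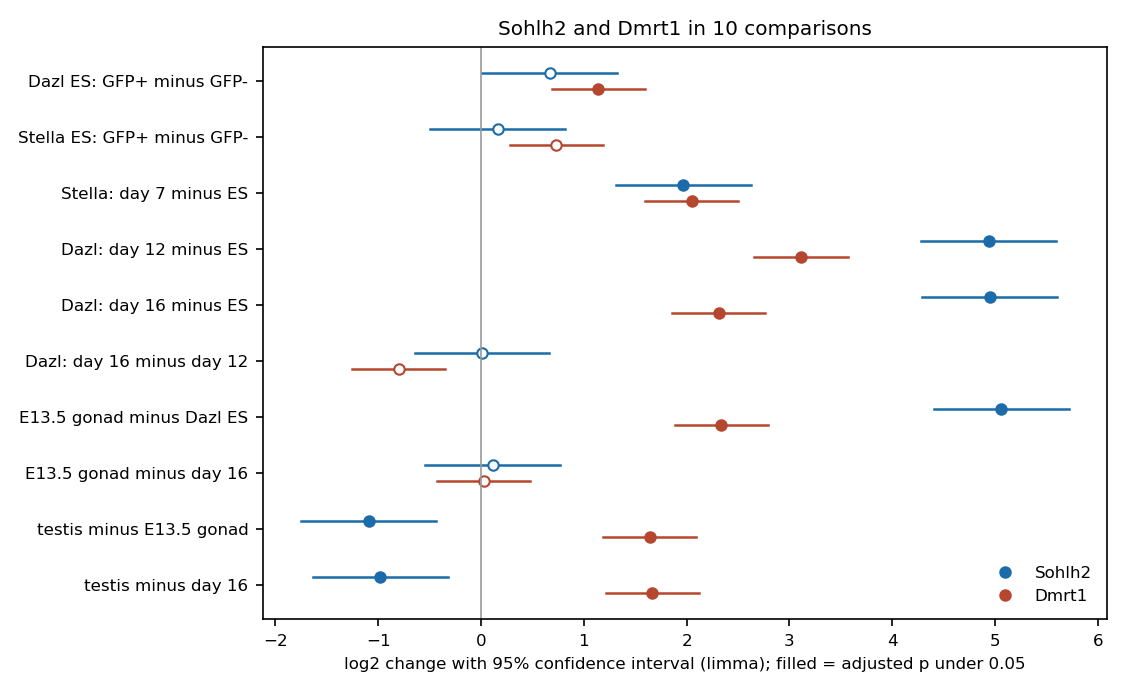
Log2 change of Sohlh2 and Dmrt1 in 10 comparisons with its 95% confidence interval from limma; filled points have an adjusted p under 0.05. From ES cells to day 12 Sohlh2 changed by 4.94 and Dmrt1 by 3.11, while between testis and E13.5 they changed in opposite directions, by -1.09 and 1.64.

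Lhx8 was below background in every cultured group and was measured only in germ cells taken from mice. On the tested probe it stood at 0.27 and 0.22 in the testis and at -1.83 and -2.42 at E13.5, while its readings on the 14 arrays of cultured cells, all below background, ran from -7.23 to -5.11. No array of one stage overlapped those of the other. Testis cells had 5.17-fold more than E13.5 cells (log2 change 2.37 ± 0.40 SE, adjusted p = 8.19e-04), with a log2 change of 2.66 against E13.5 replicate 2 alone. E13.5 cells had at least 14-fold more than day 16 cells (adjusted p = 1.02e-05) and at least 8.03-fold more than GFP+ Dazl ES cells (adjusted p = 1.88e-05). Testis cells had at least 72.5-fold more than day 16 cells (adjusted p = 2.93e-07). The probe passed the filter only through the E13.5 and testis arrays, so its adjusted p-values against cultured cells serve only as a description. A bound sets the higher group's mean against, on each array of the other group, the lowest signal that counted as well above background or the probe's own reading, whichever was higher.

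The other Lhx8 probe read lower and gave the same order. It stood at -1.51 and -1.45 in the testis and -3.79 and -4.70 at E13.5, a difference of 2.77 (adjusted p = 0.00351), and was below background in cultured cells, which put testis cells at least 22.0-fold above day 16 cells. The testis against E13.5 call held with normexp (1.70, adjusted p = 0.00146). The E13.5 calls did not: with normexp Lhx8 was at -0.20 against ES cells and -0.59 against day 16, where the medians over all genes were -0.49 and -0.55. The testis against day 16 change was then 1.12 (adjusted p = 0.00671), with a median over all genes of -0.68.

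Figla was split between the libraries labelled E13.5. Replicate 1, the library with no Y-linked signal, was at 0.84, the highest reading of Figla in the series, and replicate 2 was at -5.46, below background like all 14 cultured arrays. The testis arrays, at -0.67 and -0.63, lay between them, with a gap of 6.29 between the E13.5 libraries against a median gap of 0.52 over all genes there. Differences that use the E13.5 mean of Figla are therefore given with each library left out. In testis germ cells Figla was at least 39.0-fold above day 16 cells (adjusted p = 0.00402). It passed the filter only through the testis arrays, so its adjusted p-values against cultured cells serve only as a description. Against E13.5, the testis change was 1.66 in the full fit (adjusted p = 0.39), 4.81 without replicate 1 (adjusted p = 6.62e-06) and -1.49 without replicate 2 (adjusted p = 0.0101). E13.5 minus day 16 was called in the full fit (4.15, adjusted p = 0.028) and was 1.0 without replicate 1 (adjusted p = 0.0487), where both groups were then below background. E13.5 minus GFP+ Dazl ES cells was 3.67 (adjusted p = 0.0447), and 0.52 without replicate 1 (adjusted p = 0.288). Left-out arrays of other groups also ended these calls: E13.5 minus day 16 had an adjusted p of 0.0696 without day 16 replicate 1 and 0.127 without replicate 2. E13.5 minus ES cells lost its call in 17 of the 18 fits that each left out 1 array, with adjusted p from 0.0563 to 0.288, and kept it in the fit without E13.5 replicate 2. With normexp Figla was called in none of these comparisons, and testis minus day 16 was 0.03.

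With these limits, 4 of 4 genes measured were called between E13.5 and ES cells, where 44.8% of all genes were called (23.4% higher and 21.4% lower), and 2 of 4 between E13.5 and day 16 (42.5%, with 24.1% higher and 18.3% lower). Between testis and E13.5 it was 3 of 4 (34.8%, with 16% higher and 18.9% lower), and between testis and day 16 it was 4 of 4 (49.2%, with 26.2% higher and 23% lower). Since Lhx8 and Figla passed the filter only through the gonad or testis arrays, these counts are given as a description.

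The libraries labelled E13.5 differed in other genes too. For Sohlh2, Dmrt1 and Lhx8 the gaps were 0.36, -0.08 and 0.59 (replicate 1 minus replicate 2), against the median size of 0.52 over all genes. Of 11 genes of meiotic entry, 9 were over 1 log2 unit higher in replicate 1 (median 1.88), against 14.6% of all genes. Stra8, the retinoic acid target that starts meiosis, was at 8.87 in replicate 1 and 1.55 in replicate 2. Of 15 Sertoli cell genes 10 were over 1 unit lower in replicate 1, with Sox9 at -7.60 against -1.76. Among all 18883 genes tested, 2127 were over 1 unit lower. Of 12 genes of the oocyte programme 4 were higher and 1 lower by that measure. The correlation of the pair over all genes was 0.943, the lowest of the 9 groups.

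**Figure D3:**
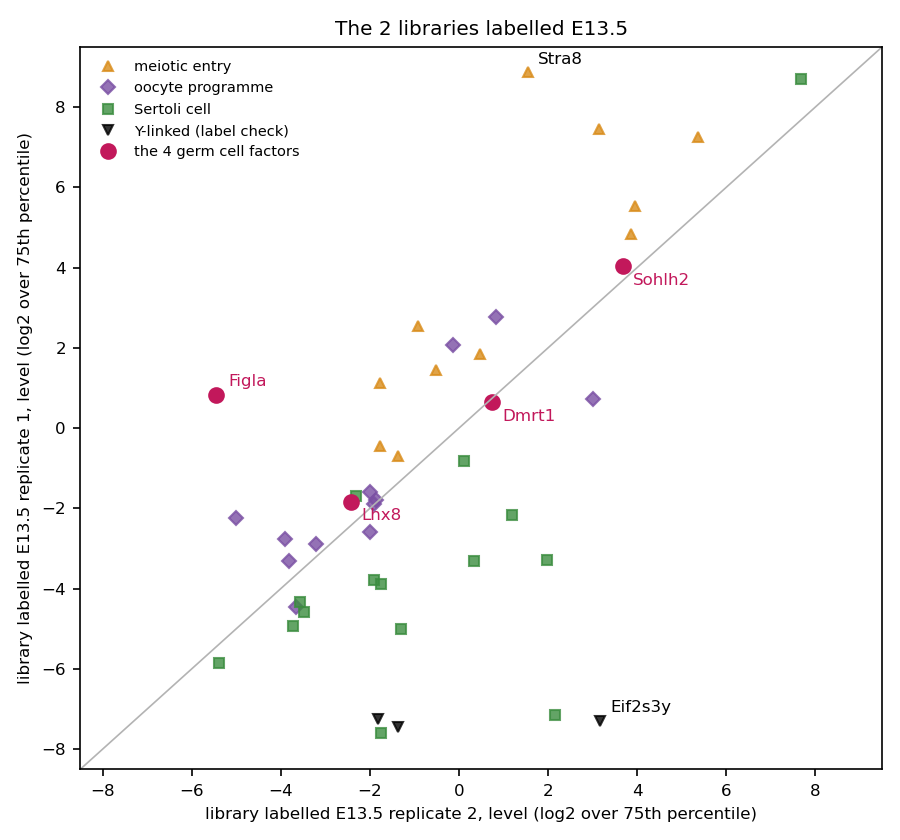
Levels on the library labelled E13.5 replicate 1 (vertical) against replicate 2 (horizontal), in log2 over the 75th percentile, for the 4 measured factors and 4 context lists, with the line of equal levels. Figla (0.84 against -5.46) and Stra8 (8.87 against 1.55) lie far above the line and the Y-linked genes far below it, while Sohlh2, Dmrt1 and Lhx8 lie close to it.

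Sohlh2 and Dmrt1 had different orders over the 9 groups. For Sohlh2 the E13.5, day 16 and day 12 arrays stood at the top and overlapped, followed without overlap by the testis, day 7 and the ES groups, among which GFP+ and GFP- Stella cells overlapped. For Dmrt1 the testis came first, then day 12, then E13.5 and day 16, which overlapped, then day 7 and the ES groups. For Lhx8 and Figla the testis mean came first and the E13.5 mean next, with overlapping arrays for Figla, and the cultured groups, all below background, have no order. Over the 9 group means, among 7272 genes whose means span at least 2 log2 units, Sohlh2 was most like Dmrtc1c1 (Pearson r = 0.995), Xlr3c (0.991) and Rhox2a (0.987). Dmrt1 was most like Cetn4 (0.986), C8b (0.979) and Tnip2 (0.978), Lhx8 like Slc26a8 (0.991), Ptcra (0.986) and Chrdl2 (0.983), and Figla like Tex16 (0.995), Zcwpw2 (0.994) and Rmrp (0.992). Sohlh2 and Dmrt1 correlated at 0.906, and Lhx8 and Figla at 0.968. These are descriptions over 9 means that share slides, and those of Lhx8 and Figla are set by the testis and E13.5 means, since their other 7 means are below background. Dmrtc1c1, Xlr3c and Rhox2a belong to families with near-identical copies on the X chromosome, whose probes may not tell the copies apart.

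Of 10 genes of the Dmrt family tested, 8 were on the list used here, which leaves out Dmrtc1b and Dmrtc1c1. Of these 8, 5 were called higher in Dazl-GFP+ cultured cells than in ES cells, though 1 with normexp. At day 12, 5 of 8 were higher and none lower (median change 2.82, and -0.11 over all genes, of which 13% were higher). At day 16 it was again 5 of 8 (median 2.47, and -0.15 over all genes, of which 11.1% were higher), and at day 7 it was 2 of 8 (7.62% of all genes). Dmrt1, described above, is counted in each of these. Dmrt3 was at -1.05 and -1.04 at day 12 and below background in GFP+ Dazl ES cells, a difference of at least 8.90-fold (adjusted p = 4.83e-06). Dmrtb1, also called Dmrt6 and known from differentiating spermatogonia, was at 0.19 and 0.06 at day 12 against -3.91 (below background) and -3.47 in GFP+ ES cells (log2 change 3.82 ± 0.74 SE, adjusted p = 0.00336). With quantile normalization the counts at day 12 and day 16 were again 5 of 8, but with normexp 1 of 8 was called at each, with medians of 0.02 and 0.55. Normexp called 837 of all 18883 genes higher at day 12 and 166 at day 16, against 2464 and 2090 in the main setting.

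The 8 Dmrt genes on the list were also compared in germ cells from mice. Against E13.5, 5 of 8, Dmrt1 included, were higher in the testis and 1 lower (median 2.42, and -0.08 over all genes, of which 16% were higher and 18.9% lower). With E13.5 replicate 2 alone, 6 were higher and 0 lower. With normexp 3 were higher and 1 lower, where 4462 of all 18883 genes were called, 1648 of them higher. Dmrtb1 stood at 2.22 and 0.71 in the testis against -1.27 and -4.26 at E13.5 (4.24, adjusted p = 0.00114, and 5.73 with E13.5 replicate 2 alone), so the E13.5 arrays lay below the testis arrays but far apart. Dmrta1 was above background only in the testis, at -1.56 and -4.61, and the mean of these 2 arrays was at least 8.07-fold above E13.5. The 2 arrays lay far apart, so the bound holds for their mean and not for each. Dmrta1 passed the filter only through them, so its place among the 5 higher genes serves only as a description. Dmrta2 ran the other way, at -5.60 (below background) and -4.71 in the testis against -1.01 and -4.10 at E13.5 (-2.60, adjusted p = 0.0177). This call was lost with E13.5 replicate 2 alone (-1.06, adjusted p = 0.0909). Dmrtc2 was at 3.94 on the library labelled E13.5 replicate 1 and -1.89 on replicate 2. Against day 16, 24.1% of all genes were higher at E13.5 and 18.3% lower. Of the 8, 1 was higher there, Dmrt3 (0.96, adjusted p = 0.00606), and 2 lower, Dmrtb1 (-2.21) and Dmrtc1a (-2.53). With E13.5 replicate 2 alone these were 1.12, -3.70 and -3.75. With normexp 0 were higher and 4 lower, where 13819 of all 18883 genes were called, 35.0% of them higher.

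**Figure D4:**
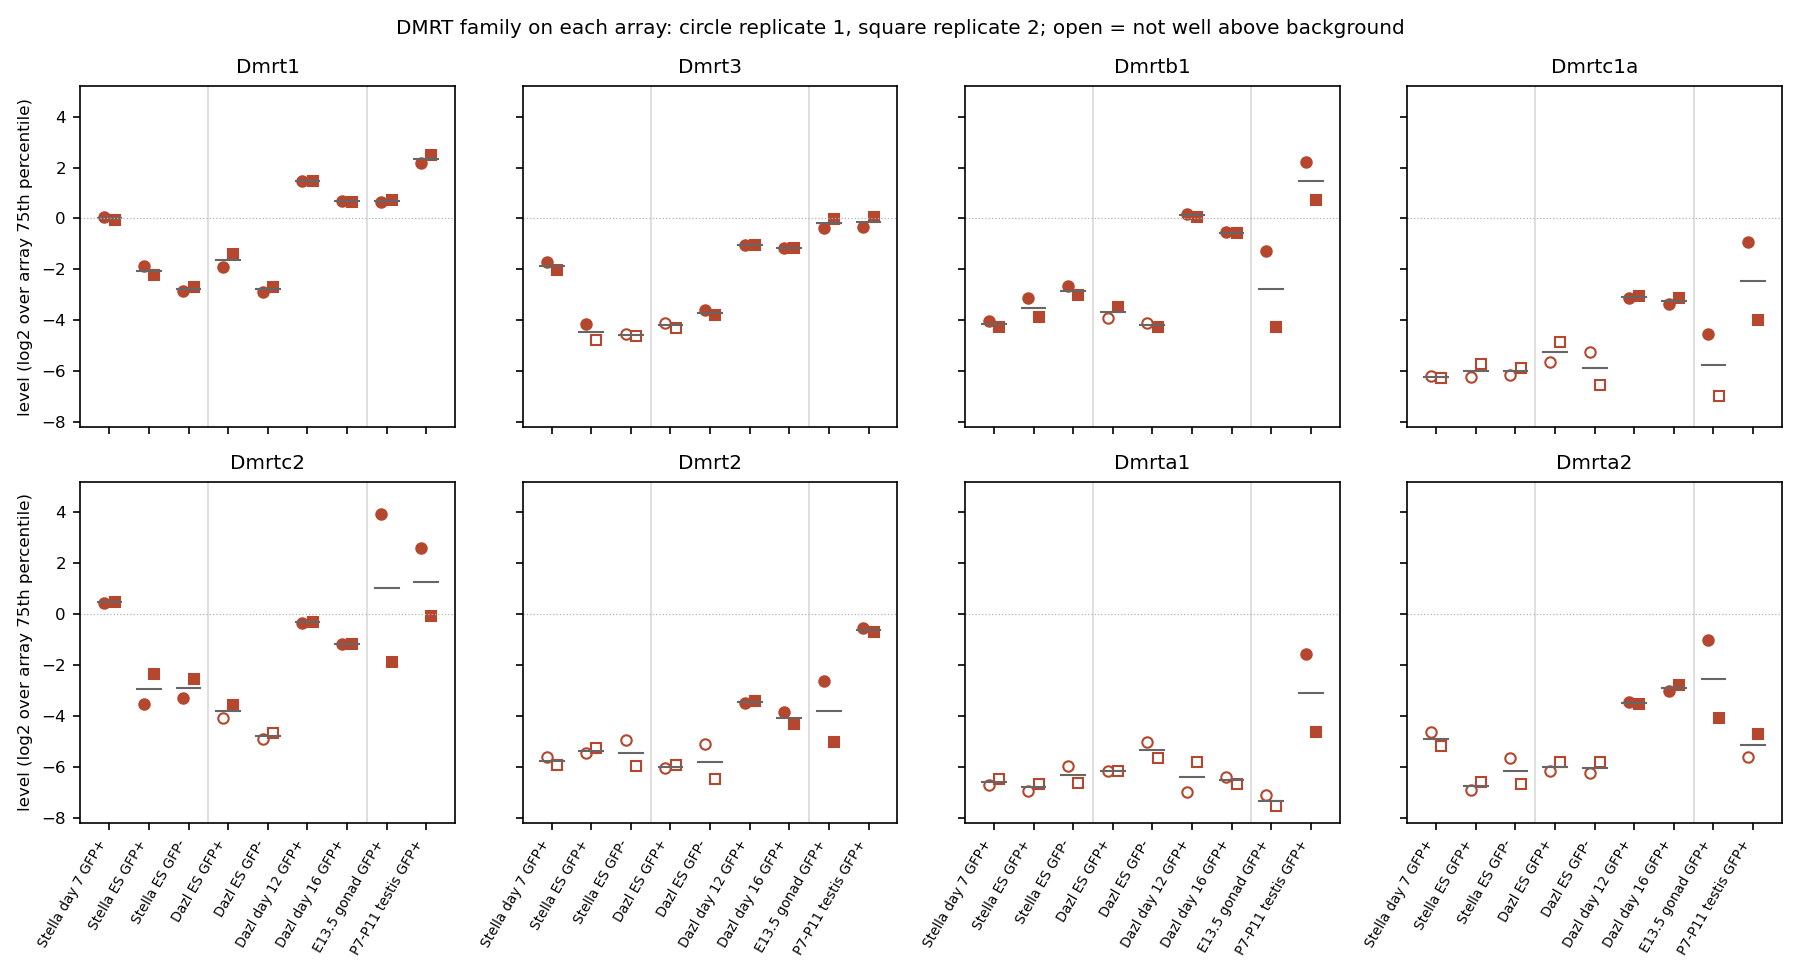
Levels of 8 DM domain genes on each of the 18 arrays, in log2 over the array's 75th percentile; circles are replicate 1, squares replicate 2, bars the mean, and open symbols arrays where the probe was not well above background. Dmrt1 and Dmrt3 read alike on the E13.5 pair, whereas Dmrtc2 (3.94 and -1.89) and Dmrtb1 (-1.27 and -4.26) do not.

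Tcf3, Tcf4 and Tcf12 code for the E proteins, widely expressed bHLH partners. They were called in none of the comparisons among cultured groups, except 1 of 3 at day 16 with quantile normalization. At E13.5, Tcf12 was 0.70 above GFP+ Dazl ES cells (adjusted p = 0.0454), a call lost with E13.5 replicate 2 alone (0.28, adjusted p = 0.345). Tcf3 was 0.76 above day 16 cells (adjusted p = 0.00362, and 0.66 with replicate 2 alone), and Tcf4 was -1.58 in the testis against day 16 (adjusted p = 0.0288). Of the 11 LIM homeobox genes tested, Lhx8 included, 4 were higher and 2 lower in the testis than at E13.5 (median 0.02, and -0.08 over all genes, of which 16% were higher and 18.9% lower). With E13.5 replicate 2 alone, 5 were higher and 3 lower. Against day 16, 6 were higher and 1 lower in the testis (median 1.98, and 0.12 over all genes, of which 26.2% were higher and 23% lower). Lhx2 differed from Lhx8 in being measured in culture: it was higher than in GFP+ Dazl ES cells at day 12 (3.25, adjusted p = 0.00479) and at day 16 (3.78, adjusted p = 0.00222).

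Of the oocyte programme that SOHLH proteins, LHX8 and FIGLA are known to run in ovaries, 12 of 20 listed genes were tested. In the testis 5 were higher and 1 lower than at E13.5 (median 1.13), where 16% of all genes were higher and 18.9% lower. With E13.5 replicate 2 alone the counts were also 5 and 1. Against day 16, 4 were higher and 3 lower (median 0.81), near the shares of all genes (26.2% and 23%). With normexp these were 3 higher and 1 lower, and 2 higher and 5 lower. Normexp called 4462 of all 18883 genes against E13.5 and 13953 against day 16, 36.9% and 32.2% of them higher. Nobox, an oocyte homeobox gene, was at -0.90 and -0.57 in the testis and below background on both day 16 arrays, a difference of at least 23.2-fold (adjusted p = 2.53e-04). It passed the filter only through the E13.5 and testis arrays, so this p-value serves only as a description. Zp3, which codes for a zona pellucida protein, was at 0.52 and -0.45 in the testis against -3.30 and -3.83 at E13.5 (3.60, adjusted p = 3.56e-06, and 3.86 with E13.5 replicate 2 alone). Ooep, a maternal gene of the oocyte and early embryo, was at -2.30 and -2.33 in the testis against 0.73 and 3.0 at E13.5 (-4.18, adjusted p = 8.93e-05, and -5.32 with E13.5 replicate 2 alone). At day 12, 2 of 12 were higher, Nlrp14 and Tle6, and 2 lower, Zp3 and Jag1 (median 0.35), near the shares of all genes (13% and 14.2%).

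Of the spermatogonial genes, 14 of 19 were higher in the testis than at day 16 and 2 lower (median 1.60, and 0.12 over all genes, of which 26.2% were higher and 23% lower). Named by smallest p and not by size of change, the higher genes included Uchl1 (4.07, adjusted p = 7.44e-05), Sox3 (3.40) and Foxo1 (1.65). Etv5 was among the lower (-2.13). With normexp 7 of 19 were higher and 5 lower, where 13953 of all 18883 genes were called, 32.2% of them higher. At day 12 against ES cells, 3 of 19 were higher, Kit (2.07), Tex14 (3.0) and Dmrtb1, and 4 lower, Lin28a (-3.77) among them, near the shares of all genes (13% and 14.2%). Kit, the receptor that marks differentiating spermatogonia, was 1.43 higher at E13.5 than in GFP+ Dazl ES cells (1.23 with E13.5 replicate 2 alone) and did not pass the test between testis and E13.5 (-0.19, adjusted p = 0.575). Genes of meiotic entry were higher at day 12 in 8 of 11 (median 3.09, and -0.11 over all genes), at day 16 in 9 of 11 and at E13.5 in 10 of 11, all against GFP+ Dazl ES cells, and none was lower. Of all genes, 13%, 11.1% and 23.4% were higher in these 3 comparisons. With normexp the counts of meiotic genes were 5, 4 and 8 of 11, where 837, 166 and 3787 of all 18883 genes were higher. The E13.5 count was 8 of 11 when the library labelled E13.5 replicate 1 was left out. Stra8 was at 8.95 and 8.84 at day 12 against -0.03 and -0.08 in GFP+ ES cells (adjusted p = 0.00314).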

How the data were processed

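Each sample is 1 one-colour (Cy3) Agilent array. Per the file headers, the intensity values were made with Agilent Feature Extraction 9.1.3.1, which subtracted the background and detrended each array, and the authors deposited them without scaling between arrays. A table of group means, which the authors deposited as intensity values normalized to the median, served only as an alternative. Signals of a probe were averaged over its spots and put on a log2 scale relative to the 75th percentile signal of their array. Of 41174 probes, 183 with outlier flags were left out. A gene was represented by its brightest probe among the 28117 well above background on both arrays of at least 1 group. The 18883 genes were fitted over 18 arrays and 9 groups with limma 3.58.1 in R 4.3.3 (9 residual degrees of freedom), with Benjamini-Hochberg adjustment and a threshold of 0.05. All p-values in the text come from this fit or, where named, from an alternative to it, and intervals are at 95%. The 75th percentile signals ran from 103 to 474 and no probe was saturated. With 2 arrays a group, the number of arrays limits the precision: on simulated data for the Dazl ES sort, the test found 9 of 100 genes changed by 1 log2 unit and 50 of 100 changed by 2, with 3 false calls among 18683 unchanged genes.

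The genes studied and all gene lists were chosen with earlier results of these data known. From each list up to 3 called genes per direction with the smallest p were named. Stra8, Sox9, Dmrtc2 and Rhox5 were named after their values were seen, as was the comparison of Kit between testis and E13.5. Alternatives were normexp background correction (offset 50), quantile normalization, other filters, each probe on its own, slide or replicate number as a block, the authors' means and leaving out each array. The slide as a random block and the Sertoli sum without Rhox5 were added after seeing the data. Array probes were renamed through their accessions where RefSeq tables held them.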

Additional observations from a re-analysis of the deposited data

How the results depend on the processing

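Normexp background correction changed the most. The number of the 4 genes called was 0 in the Dazl ES sort (1 in the main setting), 2 between day 16 and day 12 (0), 2 between E13.5 and ES cells (4), 1 between E13.5 and day 16 (2) and 2 between testis and day 16 (4). In the same order, normexp called 74, 7052, 12209, 13819 and 13953 of all 18883 genes. Lhx8 turned to 0.94 between day 16 and day 12, -0.20 between E13.5 and ES cells and -0.59 between E13.5 and day 16, and Figla to -0.016 in the last. The cause was not tested. The Dazl ES sort also had 0 calls with the slide as a fixed term, and E13.5 against day 16 had 1 with the stricter filter, which tests fewer genes. Of 44 changes of single genes, called or not, 43 stayed on their side of the threshold with quantile normalization. All 44 did so with no filter, with each probe on its own and with the slide as a random block (consensus correlation -0.0528). Leaving out 1 array at a time gave 0 to 1 calls in the Dazl ES sort, 3 to 4 between E13.5 and ES cells, 1 to 2 between E13.5 and day 16, 2 to 4 between testis and E13.5 and 3 to 4 between testis and day 16, and the same count as the main setting elsewhere. Figla between testis and E13.5 was -1.49 without E13.5 replicate 2 and 4.81 without replicate 1.

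With the replicate number as a block, all 44 changes of single genes, called or not, stayed on their side of the threshold. The Dazl ES sort again had 1 gene called. Same-numbered samples deviated from their group means with a correlation of 0.56 in the Stella ES sort, 0.41 in the Dazl ES sort, 0.55 between day 12 and day 16 and 0.24 between E13.5 and testis, but the labels do not say that the numbers mark pairs.

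Calls were counted among 18883 genes in the main fit and in every fit that left out 1 array. They were counted among 28117 probes with each probe on its own, 27598 genes with no filter and 17482 genes with the stricter filter. These counts moved with the setting. Over settings other than left-out arrays they ran from 74 to 631 in the Dazl ES sort (543 in the main setting), 9 to 111 in the Stella ES sort (86), 0 to 19 in the difference of the sorts (7), 830 to 5663 at day 7 (3892), 1460 to 7222 at day 12 (5151), 1077 to 7172 at day 16 (4662) and 132 to 7052 between day 16 and day 12 (190). For E13.5 they ran from 8239 to 13949 against ES cells (8465) and 7682 to 13819 against day 16 (8017), and for testis from 4462 to 10024 against E13.5 (6577) and 8744 to 14298 against day 16 (9299). Leaving out 1 array at a time moved them to 40 to 1377, 23 to 257 and 1 to 77 in the sorts and their difference, 1439 to 5693, 2548 to 6921 and 2089 to 6561 at day 7, day 12 and day 16, 60 to 375 between day 16 and day 12, 6183 to 9249 and 5341 to 8745 for E13.5, and 5960 to 7609 and 6830 to 10459 for testis, so the shares of all genes given as background move with them. The share of higher genes among the calls was 31.1% with normexp and 51.2% in the main setting for the Dazl ES sort, 48.6% and 36.9% at day 7, 15.4% and 44.8% at day 16, 76.7% and 61.1% between day 16 and day 12, 31.0% and 52.2% between E13.5 and ES cells, 35.0% and 56.8% between E13.5 and day 16, and 32.2% and 53.2% between testis and day 16. Probes below background give only bounds, which limits Lhx8 and Figla in all cultured groups.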
